A study of Mus musculus with 15 samples.

Results

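The genes described here are 10 members of the pericellular protease machinery by which cells loosen matrix and shed surface proteins: the urokinase pair Plau and Plaur, the matrix metalloproteases Mmp8, Mmp9, Mmp14 and Mmp19, the ADAM proteases Adam8, Adam9 and Adam19, and the metalloprotease inhibitor Timp1. They were chosen by name and not by a cut on a measured value, but with earlier results of these data known. All 10 had a row among the 20453 genes measured. The series concerns mice carrying the cDNA of the human MLL-AF9 fusion gene, and its title speaks of an invasive acute myeloid leukaemia arising from haematopoietic stem cells. RNA was sequenced from sorted mouse bone marrow (strain C57BL/6) in 4 groups named wtGMP (4 libraries), LTearly (4), LTlate (3) and BMTGMP (3), and 1 further library, M2grLT3, stands apart because its title and its column name place it in different groups. The labels do not spell the group names out. GMP is their abbreviation for granulocyte-macrophage progenitors, and LT-HSC is theirs for long-term haematopoietic stem cells.

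The same protocol text is attached to every sample, so it does not say which group carried or expressed the transgene, and it gives no age, induction schedule or disease stage per group. It describes targeting of the fusion cDNA into A2Lox-cre cells, chimeric lines raised from selected clones, backcrossing to C57BL/6 and the use of double heterozygous females. Cells bearing Ter119, Gr-1, B220, Cd11b or Cd5 were removed from the marrow and the rest sorted through a progenitor or a stem cell gate, with no statement of the gate each library came from. No label states that the libraries of a group came from separate animals, so p-values measure the spread between these libraries, which may be technical. Titles outside wtGMP carry a further code, such as M2grD2 in LTearly and M3grD2 in LTlate. Parts of these codes recur across groups, and whether they mark animals or a batch was not tested.

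Urokinase, the product of Plau, is a secreted serine protease that turns plasminogen into plasmin, and its receptor, the product of Plaur, holds it at the cell surface. Plasmin degrades fibrin and can activate matrix metalloprotease zymogens. Mmp8 is the neutrophil collagenase and Mmp9 a gelatinase, and both are stored in the granules of maturing neutrophils, whereas Mmp14 is anchored in the membrane and activates Mmp2. ADAM proteases are membrane proteins that can cleave the extracellular parts of other membrane proteins, and Timp1 blocks many metalloproteases. In normal marrow, granule protease genes are switched on one after another as granulocytes mature.

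Promoter sequences were looked up because Plaur, Mmp8 and Adam8 rose together in several comparisons below, as did Mmp9, Adam9 and Adam19. Entries were found in RefSeq for 6 of the 10 genes (Plaur, Mmp8, Mmp14, Adam8, Adam19 and Timp1), and 3 are shown: the 250 bases before the annotated start, 5′ to 3′ on the gene's strand, build GRCm38.p6. Capitals mark matches, on either strand, to TGANTCA (the AP-1 motif), to TTGCNNAA (a C/EBP motif, TTNNGCAA on the other strand) or to AGGAAGT (an ETS motif, ACTTCCT on the other strand). The windows are chr7:24462233-24462482 on the plus strand for Plaur, chr9:7558179-7558428 on the plus strand for Mmp8 and chr7:139992563-139992812 on the minus strand for Adam8.
Plaur: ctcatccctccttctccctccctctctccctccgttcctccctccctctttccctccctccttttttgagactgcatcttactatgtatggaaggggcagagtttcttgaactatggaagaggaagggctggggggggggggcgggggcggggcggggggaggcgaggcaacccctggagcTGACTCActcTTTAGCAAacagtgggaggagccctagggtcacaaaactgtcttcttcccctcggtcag
Mmp8: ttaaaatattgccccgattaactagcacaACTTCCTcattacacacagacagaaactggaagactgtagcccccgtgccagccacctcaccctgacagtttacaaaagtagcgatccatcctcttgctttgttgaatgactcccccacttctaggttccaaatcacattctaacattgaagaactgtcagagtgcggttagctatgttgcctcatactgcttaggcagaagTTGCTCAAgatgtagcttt
Adam8: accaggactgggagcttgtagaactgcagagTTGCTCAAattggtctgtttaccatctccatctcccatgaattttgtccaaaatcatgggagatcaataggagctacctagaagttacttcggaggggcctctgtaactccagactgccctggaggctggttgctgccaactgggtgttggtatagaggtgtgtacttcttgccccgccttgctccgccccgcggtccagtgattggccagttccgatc

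Plaur held TGACTCA at bases -69 to -63 and TTTAGCAA at -59 to -52, counted from the start. Mmp8 and Adam8 both held the letters TTGCTCAA, at -19 to -12 in Mmp8 and at -219 to -212 in Adam8, and Mmp8 also held ACTTCCT at -221 to -215. Of 32817 RefSeq mouse promoter windows of the same length, 6.75% held the AP-1 letters, 9.57% the C/EBP letters and 7.69% the ETS letters. One of the 3 Adam19 windows held the AP-1 letters and the Timp1 window the ETS letters, and TGTGGT (a RUNX motif, ACCACA on the other strand), which 14% of windows held, was found in Mmp14 and in another Adam19 window. The C/EBP letters were in no window of Mmp14, Adam19 or Timp1, although Adam19 was called in the same pairs of groups as Plaur and Mmp8. None of these motifs overlap in the windows shown. A match is a description of the letters and not of a bound site.

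The libraries held 2469851 to 15092996 counts on genes, with LTlate the deepest group, and 14553 genes passed the filter on low counts. Levels are given as CPM (counts scaled to a common library total, after TMM scaling), and differences as log2 fold changes with their standard error (SE), from edgeR's quasi-likelihood test with p adjusted over all genes tested by the Benjamini-Hochberg method (threshold 0.05, 2-sided). The summed level of 6 progenitor gate markers was 17700 to 21200 CPM in wtGMP, 7040 to 10800 in BMTGMP, 1240 to 5980 in LTearly and 1300 to 1570 in LTlate. In wtGMP most of that sum was Mpo, at a mean of 17500 CPM, but in LTlate Mpo was 390 CPM and not most of it. The Fc receptor genes Fcgr2b (87 and 158 CPM, adjusted p = 0.0251) and Fcgr3 (258 and 426 CPM, adjusted p = 0.0241) rose in LTlate over wtGMP. Kit fell from 193 CPM in wtGMP to 22.8 in LTlate (adjusted p = 0.00135) and stood at 66.6 in BMTGMP (adjusted p = 0.0836). Cd34 was lowest in BMTGMP, at 4.75 CPM (adjusted p = 2.25e-05 against wtGMP), and stood at 32.6 in LTearly and 115 in LTlate. The sum thus did not rank the groups as each marker did. Ly6a and Il7r, which that gate lacks, summed to at most 3.15 CPM in wtGMP, and to 3.24 to 6.69 in LTlate, 3.4 to 26.4 in LTearly and 3.77 to 9.02 in BMTGMP, with neither called in any of the 6 pairs. Late neutrophil markers moved the other way: 11 of them (Ltf, Camp, Ngp and others) summed to 57.8 to 173 CPM in wtGMP and 1230 to 6650 in BMTGMP, but to 3820 to 9790 in LTlate and 13900 to 18900 in LTearly, with Ceacam10 at 0 in wtGMP and none at 0 across the other groups. The 11 monocyte and macrophage markers summed to 391 to 493 CPM in wtGMP, 186 to 399 in BMTGMP, 552 to 659 in LTlate and 405 to 1130 in LTearly, with C1qb at 0 in wtGMP and BMTGMP and Ms4a7 at 0 in wtGMP. The largest parts of that sum in wtGMP, Csf1r (185 CPM) and Ccr2 (192), stood at 81 and 97.6 CPM in BMTGMP, neither called against wtGMP. Adgre1 went the other way, from 13.1 CPM in wtGMP to 64.6 in BMTGMP (adjusted p = 5.26e-06). It reached 78.4 CPM in LTlate (adjusted p = 5.34e-07) and 103 in LTearly (adjusted p = 2.1e-08). In bulk libraries, fewer cells of a type and less RNA per cell cannot be told apart.

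Most of the protease genes were higher in the LT groups than in wtGMP, and none were called lower in any of the 6 pairs of groups. Against wtGMP, 8 of the 9 genes that could be tested rose in LTearly, where 11.2% of all genes tested were called higher and 8.94% lower. In LTlate 6 rose (Plaur, Mmp8, Mmp9, Adam8, Adam9 and Adam19), against 7.5% of all genes higher and 3.26% lower, and 3 were left without LTlate replicate 2. In BMTGMP 1 rose, Mmp9, against 4.4% higher and 2.16% lower. These 3 comparisons share the wtGMP libraries. Timp1 did not pass the filter on low counts, and a gene can pass it through the group where it is high. Mmp14, 1 of the 8 in LTearly, had no count in wtGMP and was not tested when only LTearly and wtGMP were fitted. As the members were chosen with earlier results of these data known, their counts beside the shares of all genes are descriptions only.

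Among the other 3 groups, 6 genes were higher in LTearly than in BMTGMP (Plaur, Mmp8, Mmp9, Adam8, Adam9 and Adam19), where 3.42% of all genes were called higher and 2.82% lower. With 1 of the 3 BMTGMP libraries left out, 2 members were called each time, but only Plaur was always among them. The other was Mmp19 without BMTGMP replicate 1, Adam8 without replicate 2 and Adam9 without replicate 4. In LTlate against BMTGMP 1 gene, Adam8, was higher, with 1.52% of all genes higher and 0.46% lower, and edgeR called no member without LTlate replicate 2 or 3 or BMTGMP replicate 1 or 4 (4 to 6 at an unadjusted p under 0.05). Between LTearly and LTlate edgeR called 0 members, against 0.117% of all genes higher and 0.0893% lower, so the 0 says nothing particular to the members. There 2 members (Plaur and Mmp8) had an unadjusted p under 0.05 in edgeR. DESeq2 called 0 members and 264 of all genes in this pair. DESeq2 called 3 members in BMTGMP against wtGMP and 3 in LTlate against BMTGMP, where edgeR called 1 in each. Over all genes DESeq2 also called more, 1420 and 574 in these pairs, where edgeR called 954 and 288.

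**Figure D1:**
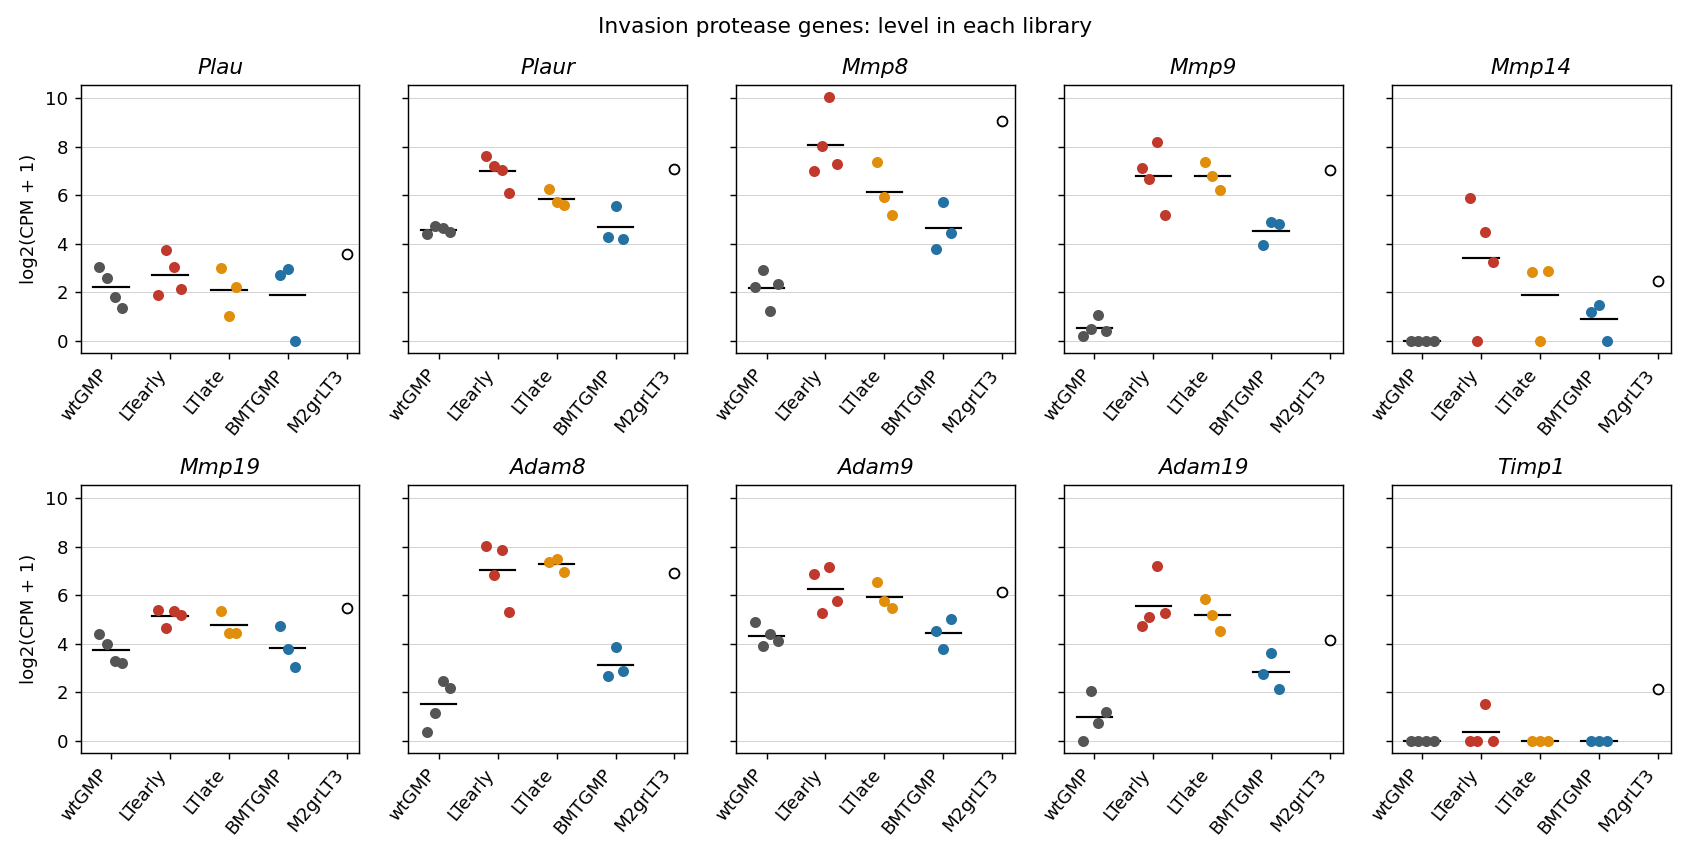
Level of each of the 10 protease genes in every library, as log2(CPM + 1), by group; points are libraries, lines are group means and the open circle is the M2grLT3 library. Mmp9 and Adam8 stay at or below 4.49 CPM in wtGMP and lie at 35.3 CPM or more in every LTearly and LTlate library.

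Plau, the urokinase gene (NM_008873), was low everywhere and did not follow the other genes. Its levels were 7.32, 5.12, 2.47 and 1.58 CPM in wtGMP and 5.58, 6.87 and 0 in BMTGMP, in the order of the replicate numbers as throughout. They were 2.69, 12.3, 7.34 and 3.4 CPM in LTearly and 7.1, 1.05 and 3.71 in LTlate. All 4 groups overlapped, and the library of BMTGMP without a count allows up to 0.628 CPM. Against wtGMP the log2 difference was 0.63 ± 1.10 in LTearly (adjusted p = 0.761), -0.07 ± 1.18 in LTlate (adjusted p = 0.996) and 0.01 ± 1.18 in BMTGMP (adjusted p = 1). LTearly stood 0.69 ± 1.19 above LTlate (adjusted p = 0.904) and 0.61 ± 1.19 above BMTGMP (adjusted p = 0.885), and LTlate differed from BMTGMP by -0.08 ± 1.25 (adjusted p = 1). With an SE above 1 log2 unit in every pair, small differences in Plau were not detectable here.

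Plaur, the urokinase receptor gene (NM_011113), was present in wtGMP and rose in both LT groups. It stood at 20.1, 25.6, 24.2 and 21.5 CPM in wtGMP and at 196, 146, 133 and 67 in LTearly. In LTlate it stood at 76.4, 51.7 and 47.7 CPM, and in BMTGMP at 18.4, 46.2 and 17.6. Every LTearly and LTlate library lay above every wtGMP and BMTGMP library, while 1 BMTGMP library, replicate 2, lay above wtGMP and the other 2 below it. The rise over wtGMP was 2.57 ± 0.33 on the log2 scale in LTearly (adjusted p = 3.38e-06) and 1.36 ± 0.34 in LTlate (adjusted p = 0.00778), and BMTGMP differed from wtGMP by 0.27 ± 0.34 (adjusted p = 0.763).

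Plaur was also the member whose 2 LT groups lay farthest apart relative to their error. LTearly exceeded LTlate by 1.21 ± 0.34 (adjusted p = 0.139), with LTearly replicate 4 inside the LTlate range, and without that library the difference was 1.40 (adjusted p = 0.0261). LTearly exceeded BMTGMP by 2.30 ± 0.36 (adjusted p = 0.000311), a call that held when any single library was left out. LTlate exceeded BMTGMP by 1.09 ± 0.36 (adjusted p = 0.146) without overlap, and by 1.73 (adjusted p = 0.00712) without BMTGMP replicate 2. The LTlate call over wtGMP ended without LTlate replicate 2 (log2 difference 1.14, adjusted p = 0.0577).

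Mmp8, the neutrophil collagenase gene (NM_008611), reached the highest single level of the 10. It was 3.73, 6.69, 1.35 and 4.12 CPM in wtGMP and 126, 261, 1060 and 156 in LTearly. It was 163, 59.9 and 35.5 CPM in LTlate and 12.7, 51.7 and 20.7 in BMTGMP. LTearly replicate 3 lay far above the others, and the lowest library of each other group lay above the highest wtGMP library. Relative to wtGMP, Mmp8 rose by 6.73 ± 1.05 in LTearly (adjusted p = 0.00102) and 4.51 ± 1.01 in LTlate (adjusted p = 0.0154), and stood 2.91 ± 1 higher in BMTGMP (adjusted p = 0.136). Without LTearly replicate 3 the LTearly rise was 5.55 (adjusted p = 0.00042).

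Against BMTGMP, Mmp8 was higher in LTearly by 3.82 ± 0.98 (adjusted p = 0.0463). That call ended without LTearly replicate 2 (adjusted p = 0.0634) or replicate 3 (adjusted p = 0.0591) and without BMTGMP replicate 1 (adjusted p = 0.163), replicate 2 (adjusted p = 0.0733) or replicate 4 (adjusted p = 0.163), with log2 differences of 2.65 without LTearly replicate 3 and 4.57 without BMTGMP replicate 2. LTlate was 1.60 ± 0.92 above BMTGMP (adjusted p = 0.544), with overlapping libraries. LTearly was 2.22 ± 0.89 above LTlate (adjusted p = 0.379). The LTlate call over wtGMP ended without LTlate replicate 2 (log2 difference 3.67, adjusted p = 0.0683) or wtGMP replicate 3 (4.21, adjusted p = 0.0536).

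Mmp9, the gelatinase gene (NM_013599), was close to absent in wtGMP and was the member called higher in all 3 other groups. It was 0.143, 0.394, 1.12 and 0.317 CPM in wtGMP, from 8 counts in all. Levels were 14.3, 29 and 27.2 CPM in BMTGMP, 139, 99.9, 290 and 35.3 in LTearly and 166, 111 and 72.8 in LTlate. No library of the other groups came near wtGMP, and every LT library lay above every BMTGMP library. Over wtGMP the rise was 8.15 ± 0.84 in LTearly (adjusted p = 2.38e-05), 7.89 ± 0.85 in LTlate (adjusted p = 6.47e-05) and 5.57 ± 0.86 in BMTGMP (adjusted p = 0.00144). Without wtGMP replicate 3, which held the most, these were 9.08, 8.82 and 6.5, and without LTearly replicate 3 the first was 7.49, all still called.

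LTearly and LTlate overlapped at Mmp9 and differed by 0.27 ± 0.56 (adjusted p = 0.928). LTearly was 2.58 ± 0.62 above BMTGMP (adjusted p = 0.0297) and LTlate 2.31 ± 0.63 above it (adjusted p = 0.106). The first call ended without LTearly replicate 1 (adjusted p = 0.0560) and without BMTGMP replicate 1 (adjusted p = 0.137), replicate 2 (adjusted p = 0.0911) or replicate 4 (adjusted p = 0.117). Without LTearly replicate 3 it was 1.93 (adjusted p = 0.0166). DESeq2 called the LTlate difference (adjusted p = 0.00459).

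Mmp14, the membrane-anchored activator of Mmp2 (NM_008608), had no count in wtGMP, which over the 4 libraries allows up to 0.175 CPM. In LTearly it was 59.2, 0, 21.3 and 8.56 CPM. It was 6.20, 0 and 6.28 CPM in LTlate and 1.3, 1.82 and 0 in BMTGMP. Each of the other groups thus had 1 library without a count next to libraries with a clear signal, and the LTearly library without a count, replicate 2, allows up to 0.799 CPM. LTearly was at least 112-fold higher than wtGMP (adjusted p = 0.0300), with 3 of its 4 libraries above 0. The bound was 25.0-fold for LTlate (adjusted p = 0.138) and 6.88-fold for BMTGMP (adjusted p = 0.334), with neither difference past the threshold. These are lower bounds, taken from pooled counts against 3 counts over the wtGMP group. They cover counting error in wtGMP only and not the spread between libraries. The fitted 95% interval of the BMTGMP difference ran from -0.19 to 12.07 on the log2 scale, which includes no difference. LTearly replicate 1 held 242 of the 373 LTearly counts, and without it the bound was 49.8-fold. Without wtGMP replicate 1, the deepest of its group, the bounds were 66.1-fold, 14.8-fold and 4.08-fold.

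The LTearly call of Mmp14 ended without any 1 of the 4 wtGMP libraries (adjusted p from 0.0561 without replicate 1 to 0.0709 without replicate 3, with 0.0576 without replicate 2 and 0.0652 without replicate 4). The same call also ended in edgeR with no low-count filter (adjusted p = 0.0624) and with a replicate block (adjusted p = 0.0953). Without LTlate replicate 3, which had no count, LTlate was called higher than wtGMP (adjusted p = 0.0463). Between the other groups the log2 differences were 2.41 ± 1.79 for LTearly over LTlate (adjusted p = 0.717), 4.35 ± 2.01 for LTearly over BMTGMP (adjusted p = 0.268) and 1.93 ± 1.88 for LTlate over BMTGMP (adjusted p = 0.839).

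Mmp19, a secreted metalloprotease gene (NM_001164197), was measured in every library and had the smallest change among the members called in LTearly. It was 19.9, 15, 8.75 and 8.23 CPM in wtGMP and 41.3, 24.0, 40.0 and 35.7 in LTearly. It was 40.0, 20.7 and 20.9 CPM in LTlate and 25.6, 12.6 and 7.12 in BMTGMP. Both LT groups lay above wtGMP without overlap, by small margins. LTearly was 1.43 ± 0.42 above wtGMP (adjusted p = 0.0144), LTlate 1.06 ± 0.44 (adjusted p = 0.134) and BMTGMP 0.22 ± 0.44 (adjusted p = 0.878).

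Mmp19 did not differ past the threshold between the other groups: LTearly stood 0.37 ± 0.44 above LTlate (adjusted p = 0.844) and 1.21 ± 0.45 above BMTGMP (adjusted p = 0.119), and LTlate 0.84 ± 0.47 above BMTGMP (adjusted p = 0.485). Without BMTGMP replicate 1 the LTearly difference from BMTGMP was 1.80 (adjusted p = 0.0477). The LTearly call over wtGMP ended without wtGMP replicate 3 (adjusted p = 0.0533) or replicate 4 (adjusted p = 0.0521). The gene's exons overlap those of Tmem198b on the other strand, and whether counting used strand is not given in the sources used here, so reads of the 2 genes may not be told apart.

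Adam8, the gene of a membrane protease of myeloid cells (NM_007403), separated both LT groups from both GMP-named groups. It was 0.287, 1.18, 4.49 and 3.48 CPM in wtGMP and 5.40, 13.4 and 6.28 in BMTGMP. In LTearly it was 263, 114, 233 and 38.6 CPM, and in LTlate 166, 177 and 124. The lowest LT library stood above the highest of the other groups, and the LTlate libraries lay within the LTearly range. The rise over wtGMP was 6.15 ± 0.82 in LTearly (adjusted p = 0.000278) and 6.10 ± 0.83 in LTlate (adjusted p = 0.000614), and BMTGMP stood 1.88 ± 0.84 above wtGMP without overlap (adjusted p = 0.248). Without wtGMP replicate 3 the first 2 were 6.83 and 6.78, both still called.

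Over BMTGMP, Adam8 was higher by 4.27 ± 0.79 in LTearly (adjusted p = 0.00935) and by 4.22 ± 0.80 in LTlate (adjusted p = 0.0218), and LTearly and LTlate differed by 0.05 ± 0.65 (adjusted p = 0.987). The LTearly call ended without BMTGMP replicate 1 (adjusted p = 0.0551) or replicate 4 (adjusted p = 0.0542). The LTlate call ended without LTlate replicate 2 (adjusted p = 0.0714) or replicate 3 (adjusted p = 0.0623) and without BMTGMP replicate 1 (adjusted p = 0.0892) or replicate 4 (adjusted p = 0.131), while the log2 difference stayed between 3.98 and 4.19 in those fits. Exons of Adam8 overlap Gm16201 on the other strand in the annotation.

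Adam9, the gene of a widely expressed ADAM protease (NM_007404), was present in all libraries and rose in both LT groups. It was 28.7, 13.8, 20.2 and 16.1 CPM in wtGMP and 22.0, 12.6 and 31.4 in BMTGMP. It was 116, 37.3, 144 and 52.9 CPM in LTearly and 92.3, 53.3 and 43.4 in LTlate. The wtGMP and BMTGMP ranges overlapped closely, and every LT library lay above both. The rise over wtGMP was 2.13 ± 0.41 in LTearly (adjusted p = 0.000843) and 1.66 ± 0.43 in LTlate (adjusted p = 0.0140), with BMTGMP at 0.13 ± 0.43 (adjusted p = 0.936).

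LTearly exceeded BMTGMP at Adam9 by 2 ± 0.45 (adjusted p = 0.0111), LTlate exceeded it by 1.53 ± 0.46 without passing the threshold (adjusted p = 0.113), and LTearly and LTlate differed by 0.47 ± 0.42 (adjusted p = 0.777). The LTearly call over BMTGMP ended without BMTGMP replicate 1 (adjusted p = 0.0593) or replicate 2 (adjusted p = 0.0522). The LTlate call over wtGMP ended without LTlate replicate 2 (adjusted p = 0.0881) and without wtGMP replicate 2 (adjusted p = 0.0528) or replicate 4 (adjusted p = 0.0560).

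Adam19 (NM_009616), whose product belongs to the meltrin branch of the ADAM family, was near 0 in wtGMP and rose in both LT groups. It was 0, 3.15, 0.673 and 1.27 CPM in wtGMP, from 15 counts in all, and 5.68, 11.3 and 3.35 in BMTGMP. It was 25.4, 33.0, 147 and 37.2 CPM in LTearly and 56.0, 35.5 and 21.7 in LTlate. LTearly replicate 3 stood far above the rest, as it did for Mmp8, and the LT groups overlapped neither of the others. Adam19 rose over wtGMP by 5.86 ± 0.94 in LTearly (adjusted p = 0.000528) and 5.18 ± 0.94 in LTlate (adjusted p = 0.00256), and stood 2.72 ± 0.95 higher in BMTGMP without overlap (adjusted p = 0.126). The first 2 were 5.25 and 4.57 without wtGMP replicate 1, 6.8 and 6.12 without wtGMP replicate 2, and the LTearly rise was 4.87 without LTearly replicate 3, all still called.

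Adam19 was 3.14 ± 0.84 higher in LTearly than in BMTGMP (adjusted p = 0.0437). The call ended without LTearly replicate 3 (log2 difference 2.20, adjusted p = 0.0564) and without BMTGMP replicate 1 (adjusted p = 0.185), replicate 2 (adjusted p = 0.0778) or replicate 4 (adjusted p = 0.189). LTlate stood 2.46 ± 0.84 above BMTGMP (adjusted p = 0.217), and LTearly 0.68 ± 0.74 above LTlate (adjusted p = 0.830). The gene's exons overlap the antisense genes Gm16033 and Gm16034.

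Timp1 (NM_001044384), the metalloprotease inhibitor of the list, was all but absent. It was at 0 in all wtGMP, LTlate and BMTGMP libraries, which allows up to 0.175, 0.0778 and 0.129 CPM over those groups. In LTearly it had 5 counts, all in replicate 3 (1.83 CPM), and it was 0 in the other 3 libraries. No test was made for it. The upper limits cover counting error only.

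**Figure D2:**
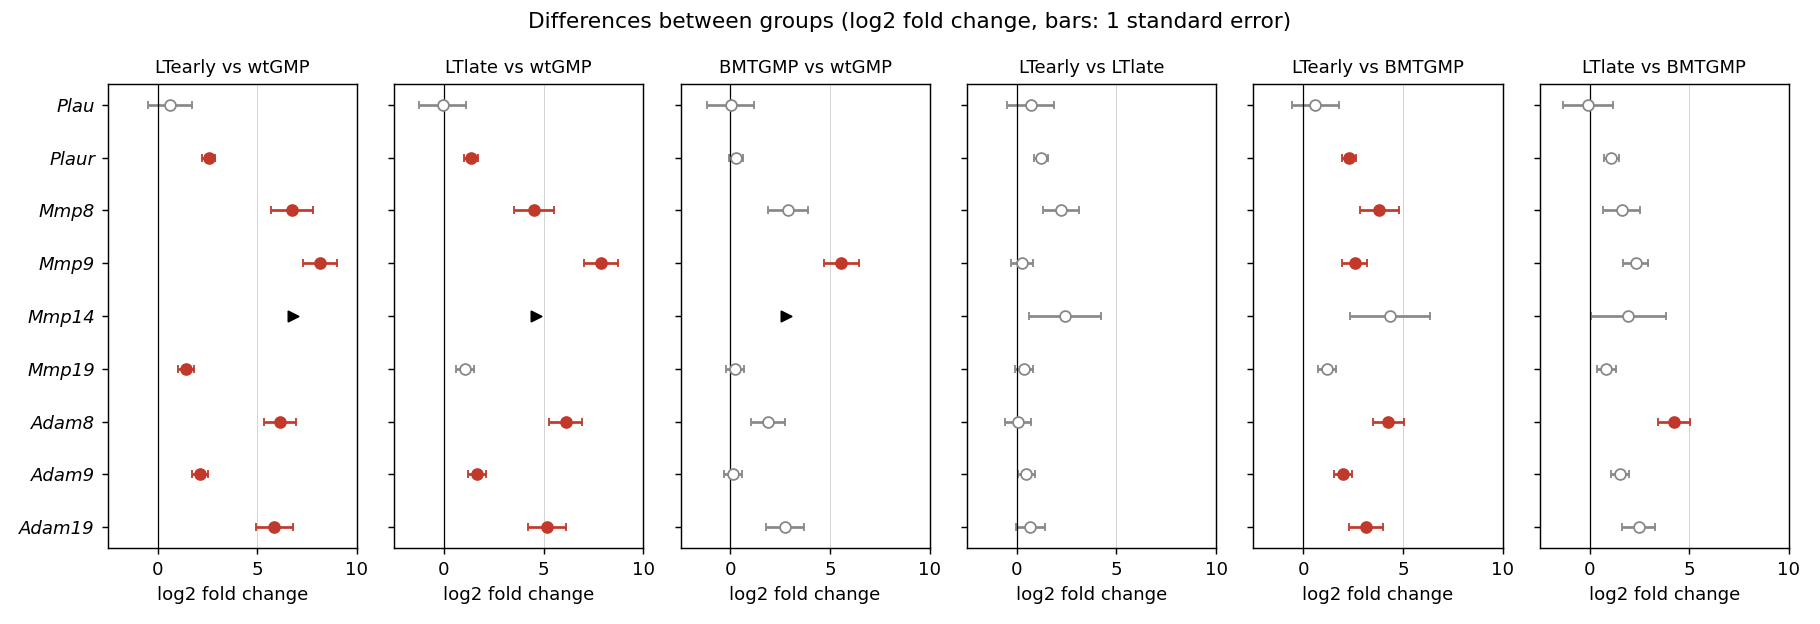
Log2 fold change with its standard error for the 9 protease genes tested, in each of the 6 pairs of groups; filled points passed an adjusted p of 0.05, open points did not, and the triangles mark the lower bound for Mmp14 against wtGMP, called only in LTearly. Every filled point lies to the right of 0. The LTearly and LTlate pair has none, where 0.117% of all genes were called higher and 0.0893% lower.

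Compared between genes per kilobase of transcript, the level in wtGMP was highest for Plaur at 15.2 ± 1.66 CPM per kilobase (SD, n = 4), followed by Mmp19 at 5.80 ± 2.49 and Adam9 at 4.87 ± 1.62, which lay within each other's spread. In LTearly Mmp8 came first at 166 ± 184, then Plaur at 89.9 ± 35.2, Adam8 at 52.0 ± 33.5 and Mmp9 at 44.4 ± 34.0, and the spans of mean and SD of neighbours in that order overlapped. Adam9 followed at 21.7 ± 12.6, then Mmp19 at 15.8 ± 3.53, Adam19 at 9.51 ± 9.06, Mmp14 at 8.58 ± 10.1 and Plau at 2.74 ± 1.88, with Timp1 last at 0.519 ± 1.04. Without LTearly replicate 3, Plaur came first at 90.4 ± 43.1 (SD, n = 3) and Mmp8 second at 74.5 ± 28.8, so the lead of Mmp8 rested on that library. In LTlate Adam8 led at 50 ± 8.93 CPM per kilobase (SD, n = 3), with Plaur at 38.9 ± 10.3, Mmp9 at 36.7 ± 14.8 and Mmp8 at 35.5 ± 27.9. In BMTGMP Plaur again led at 18.2 ± 10.8, above Mmp8 at 11.7 ± 8.51 and Mmp9 at 7.41 ± 2.53, while Adam8 stood at 2.68 ± 1.40. Plaur thus came first in both GMP-named groups, within the spread of Mmp8 in BMTGMP.

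Late neutrophil markers moved with many of these genes, so they are set beside them library by library. BMTGMP replicate 2 had a marker sum of 6650 CPM, above LTlate replicates 3 and 4 at 5510 and 3820. Its Adam8 level was 13.4 CPM against 177 and 124 there, Mmp9 was 29.0 against 111 and 72.8, Adam9 was 12.6 against 53.3 and 43.4, and Adam19 was 11.3 against 35.5 and 21.7. These 4 genes were lower in that library, which had the higher marker sum. The sum does not measure the share or stage of neutrophils. Mmp8, by contrast, was 51.7 CPM there against 59.9 and 35.5, and Plaur 46.2 against 51.7 and 47.7, so both lay within or close to the 2 LTlate values.

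The sum was 15200, 18900, 16400 and 13900 CPM in LTearly replicates 1 to 4, where Mmp8 ran from 126 to 1060 CPM and Adam8 from 38.6 to 263. Mmp8 and Adam8 varied several-fold among these libraries, while the highest level of Plaur was 2.92 times its lowest and that of Mmp19 1.72 times. LTearly replicate 3, highest for Mmp8, Mmp9, Adam9 and Adam19, also had the highest monocyte and macrophage marker sum of that group, 1130 CPM. The part of neutrophils or of other cell types in the changes was not tested.

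**Figure D3:**
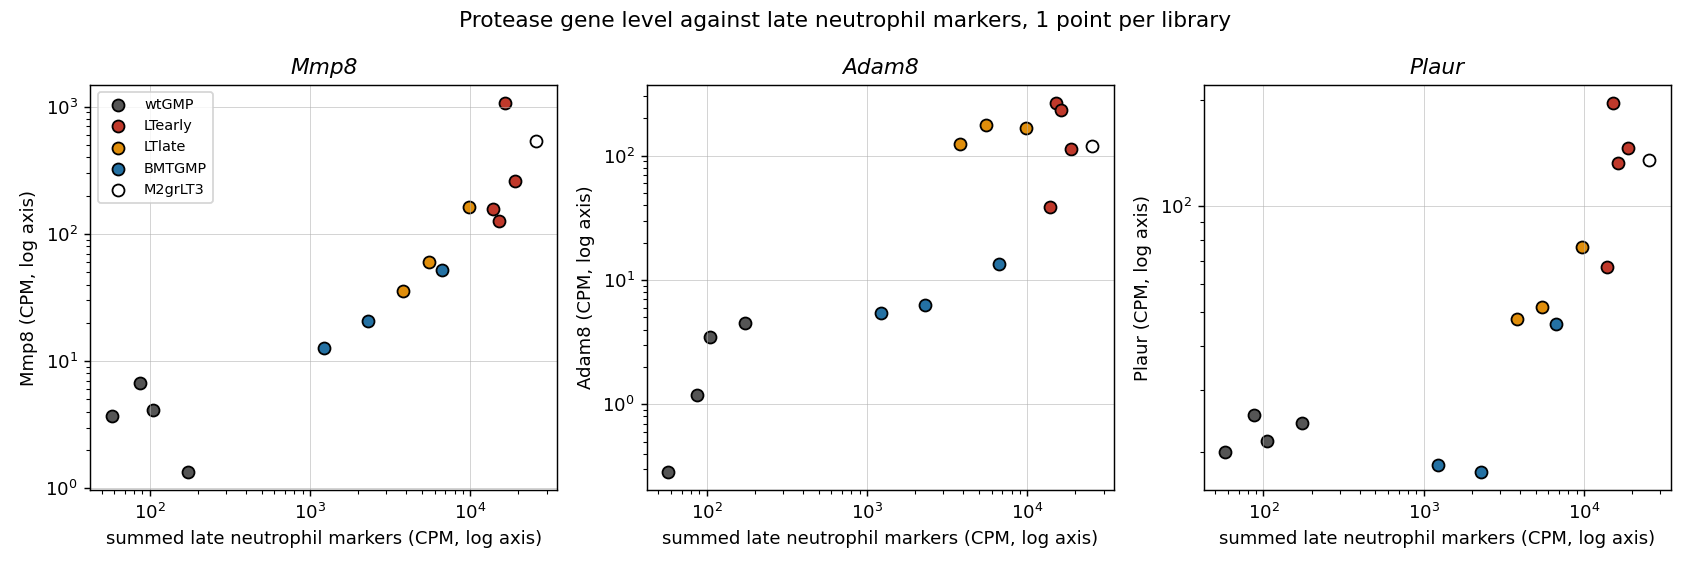
Levels of Mmp8, Adam8 and Plaur against the summed level of 11 late neutrophil markers, both in CPM on log axes, with 1 point per library coloured by group and M2grLT3 open. BMTGMP replicate 2, at a marker sum of 6650 CPM, has Adam8 at 13.4 CPM, while LTlate replicate 4, at 3820 CPM, has it at 124 CPM.

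Markers of other lineages were summed in the same way. The 8 eosinophil, basophil and mast cell markers summed to 182 to 291 CPM in wtGMP, 14.8 to 21.2 in BMTGMP, 144 to 393 in LTlate and 9.54 to 109 in LTearly, with Prss34 at 0 in LTlate and Epx, Prss34 and Cpa3 at 0 in BMTGMP. The 7 dendritic cell markers summed to 13.3 to 19.1, 9.98 to 21.8, 30.1 to 74.5 and 41.8 to 73.4 CPM in the same order, so both LT groups lay above the others, with Siglech and Zbtb46 at 0 in wtGMP and Ccr7 at 0 in LTlate and BMTGMP. The largest part of the dendritic sum was Flt3, at means of 13.3 CPM in wtGMP, 3.96 in BMTGMP, 37.9 in LTlate and 26.2 in LTearly, called in no pair. Clec9a was called higher than in wtGMP in LTearly (adjusted p = 0.0204) and LTlate (adjusted p = 0.041), and Itgax in LTearly (adjusted p = 0.0233). The 6 T and NK cell markers summed to at most 14.1 CPM in any of the 14 libraries. Of these, Cd3e, Cd3g and Klrb1c were at 0 in wtGMP, Ncr1 in LTearly and Cd3e in LTlate. The 10 stromal and endothelial markers summed to 97.2 to 135 CPM in wtGMP, 34.7 to 93 in BMTGMP, 99.4 to 201 in LTlate and 74.1 to 93.6 in LTearly. Most of that sum was a single gene, Pecam1, at means of 97.5, 40.9, 124 and 47.7 CPM in the same order. The part of these cells in the results was not tested.

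Around the 10 genes, a wider list of plasminogen, metalloprotease, ADAM, inhibitor and granule protease genes moved in both directions. Of its 61 tested genes, 14 rose and 5 fell in LTearly against wtGMP, with a median log2 difference of 1.09 (1.03 with genes absent from wtGMP at their bound) against 0.22 over all genes. These are 23% and 8.2% of the list, where 11.2% and 8.94% of all genes were called higher and lower. In LTlate 13 rose and 4 fell (21.3% and 6.56%, against 7.5% and 3.26% of all genes; median 0.56 against 0), and in BMTGMP 2 rose and 3 fell (3.28% and 4.92%, against 4.4% and 2.16%; median 0.22 against 0.07). Over BMTGMP, 6 were higher and 2 lower in LTearly (9.84% and 3.28%, against 3.42% and 2.82%; median 1.21 against 0.10), and 5 were higher in LTlate (8.2% against 1.52%; median 0.33, or 0.30 at the bound, against -0.06). Between LTearly and LTlate edgeR and DESeq2 both called 0, with 5 at an unadjusted p under 0.05 in edgeR (median 0.38 against 0.11). In that pair edgeR called 0.117% of all genes higher and 0.0893% lower.

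Of 7 tested inhibitors, activators and cofactors, 4 rose and 1 fell in LTearly against wtGMP and 3 rose in LTlate. These are 57.1% and 14.3% in LTearly, against 11.2% and 8.94% of all genes, and 42.9% in LTlate, against 7.5%. Timp2, a close relative of Timp1 whose product also takes part in the activation of Mmp2 by Mmp14, rose in all 3 groups. From a mean of 0.493 CPM in wtGMP it reached 51.8 in LTearly, 20.7 in LTlate and 21 in BMTGMP, at log2 differences of 6.71 ± 0.58 (adjusted p = 2.82e-09), 5.39 ± 0.58 (2.59e-07) and 5.41 ± 0.58 (3.18e-07). Timp1 and Timp2 thus took different courses in the same libraries. Furin, a convertase that activates Mmp14 and ADAM zymogens, rose from 29.0 CPM in wtGMP to 106 in LTearly (1.88 ± 0.28, adjusted p = 1.66e-05) and 87.9 in LTlate (1.61 ± 0.29, adjusted p = 0.000327). LTearly also exceeded BMTGMP in Furin (1.21 ± 0.30, adjusted p = 0.0128) and in Cd44, the hyaluronan receptor that can dock metalloproteases at the surface (1.47 ± 0.26, adjusted p = 0.00150). Cd44 was higher in LTlate than in BMTGMP by 1.17 ± 0.27 (adjusted p = 0.0218), and over wtGMP it rose by 1.09 in LTearly (adjusted p = 0.00168) and 0.79 in LTlate (adjusted p = 0.044).

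Of 9 tested plasminogen system genes, 2 rose in LTearly against wtGMP, and 2 rose and 1 fell in LTlate. The share higher was 22.2% in each, against 11.2% and 7.5% of all genes. The share lower in LTlate was 11.1%, against 3.26%. Anxa2 and S100a10 encode the 2 parts of a plasminogen receptor. Anxa2 rose from 80.2 to 380 CPM in LTearly over wtGMP (2.24 ± 0.36, adjusted p = 0.000472), stood at 250 in LTlate (1.64, adjusted p = 0.0102) and was higher in LTearly than in BMTGMP (1.59, adjusted p = 0.0269). S100a10 fell by 1.39 ± 0.31 on the log2 scale in BMTGMP against wtGMP (adjusted p = 0.00444) and was higher than in BMTGMP by 1.94 ± 0.32 in LTearly (adjusted p = 0.000364) and 2.09 ± 0.33 in LTlate (adjusted p = 0.000436). Lrp1, an endocytic receptor that clears protease and inhibitor complexes, rose from 52.9 to 340 CPM in LTlate over wtGMP (2.69 ± 0.45, adjusted p = 0.00163) and to 220 in LTearly (log2 difference 2.06, adjusted p = 0.0039). Serpine2, a serine protease inhibitor that acts on urokinase and thrombin, fell from 20.9 CPM in wtGMP to 1.57 in BMTGMP, a log2 difference of -3.69 ± 1.03 (adjusted p = 0.0300), and to 2.34 in LTlate (-3.15, adjusted p = 0.042).

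Of the 11 other matrix metalloproteases tested 1 rose in each LT group, and of the 22 other ADAM and ADAMTS genes 1 rose and 1 fell in LTearly, and 2 rose and 1 fell in LTlate, all against wtGMP. The shares higher, 9.09% of the metalloproteases in each group and 4.55% and 9.09% of the ADAM genes, are near or below the 11.2% and 7.5% of all genes, so they show nothing particular to these lists. Mmp25, a membrane-type protease of neutrophils, had 2 counts in all of wtGMP and reached 21 CPM in LTearly (adjusted p = 0.0028), 20.4 in LTlate and 7.02 in BMTGMP. The ratio of counts to wtGMP was 171 in LTlate (95% interval 47.1 to 1410, adjusted p = 0.00555) and 48.6 in BMTGMP (13.2 to 406, adjusted p = 0.0396), intervals that cover counting error only. Adamts3, a procollagen-processing protease, fell from 28.4 CPM in wtGMP to 4.32 in LTlate (-2.71 ± 0.61, adjusted p = 0.00303) and 7.41 in BMTGMP (-1.94 ± 0.59, adjusted p = 0.0442), and to 6.3 in LTearly (-2.19, adjusted p = 0.00411). Adam15 was higher in LTlate than in BMTGMP, 104 against 30.5 CPM (1.76 ± 0.31, adjusted p = 0.00132), and than in wtGMP at 49.2 (1.08, adjusted p = 0.0112).

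Of 12 serine granule proteases, cathepsins and heparanase, 6 rose and 3 fell in LTearly against wtGMP, and 5 rose and 2 fell in LTlate. These are 50% and 25% in LTearly, against 11.2% and 8.94% of all genes. In LTlate they are 41.7% and 16.7%, against 7.5% and 3.26%. Ctsg, the cathepsin G gene of early neutrophil granules, fell from 1240 CPM in wtGMP to 266 in LTearly (-2.22 ± 0.35, adjusted p = 0.000529) and 294 in LTlate (-2.08 ± 0.38, adjusted p = 0.00322), and it was lower in LTearly than in BMTGMP (-1.52 ± 0.36, adjusted p = 0.0261). The lysosomal Ctsb rose from 175 to 412 CPM in LTearly over wtGMP (1.23 ± 0.20, adjusted p = 4.35e-05) and Ctsd from 103 to 208 (1.02 ± 0.21, adjusted p = 0.000819). In LTlate over wtGMP both rose too, Ctsb by 0.85 (adjusted p = 0.00651) and Ctsd by 0.78 (adjusted p = 0.0213). Over BMTGMP, Ctsb was higher by 1.26 ± 0.22 in LTearly (adjusted p = 0.000659) and 0.88 ± 0.23 in LTlate (adjusted p = 0.0353). Ctsh, another lysosomal cathepsin, was higher than in BMTGMP by 1.47 ± 0.25 in LTearly (adjusted p = 0.000611) and 1.43 ± 0.26 in LTlate (adjusted p = 0.00187), and over wtGMP by 0.86 (adjusted p = 0.00687) and 0.82 (adjusted p = 0.0245).

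**Figure D4:**
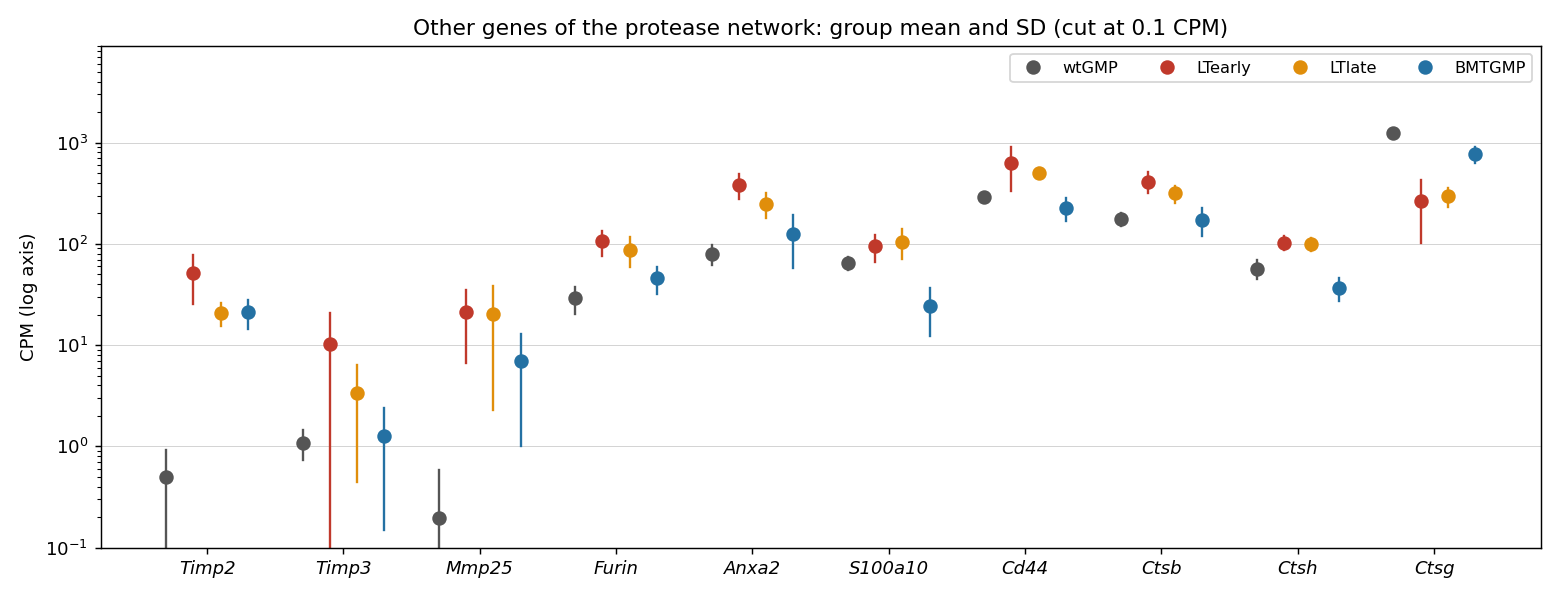
Mean level with its SD, in CPM on a log axis (values under 0.1 CPM drawn at 0.1), of some genes of the wider protease network in the 4 groups. The genes drawn are Timp2, Timp3, Mmp25, Furin, Anxa2, S100a10, Cd44, Ctsb, Ctsh and Ctsg. Lrp1, Serpine2, Adamts3, Adam15 and Ctsd, named in the text, are not drawn. Timp2 stands at 0.493 CPM in wtGMP and at 20.7 CPM or more in the other groups, while Ctsg falls from 1240 CPM in wtGMP to 266 and 294 in LTearly and LTlate.

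The genes whose log2 CPM followed each member most closely over the 14 libraries, among 9790 candidates with a mean of at least 5 CPM, were Phlda1 (Pearson r = 0.948) and Cd14 (0.942) for Plaur, Il18rap (0.970) and Arrb2 (0.967) for Mmp8 and Itgam (0.986) and Itgb2 (0.984) for Mmp9. For Adam8 they were Lgals3 (0.964) and Lilr4b (0.960), for Adam9 Birc3 (0.948) and Tarm1 (0.945), and for Adam19 Ccl6 (0.959) and 6430548M08Rik (0.953). Mmp19 was followed by Btg1 (0.923) and Tmem104 (0.921), Mmp14 by Ensa (0.864) and Hectd3 (0.853) and Plau by Mtfr1 (0.814) and Vps28 (0.804). These are descriptions: the libraries share their groups, so any genes that differ between the groups correlate, and depth differs between the groups too.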

How the data were processed

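The authors deposited 1 table of expected counts for 28847 RefSeq transcripts in 16 columns. Per the file headers, reads were counted on mm9 with up to 100 hits kept, and the submitters' processing notes name Bowtie 0.9.9.1. Of the deposited expected counts, 13.75% were not whole (tolerance 1e-06), and they were rounded to whole numbers. Symbols were found for 26092 transcripts in a RefSeq table and GENCODE, and transcripts without one held 3.5% to 4.2% of the counts. Another 1 column matched no sample and was not used. Where a gene had several transcripts, the one with the highest mean over the libraries stood for it. Transcripts of a gene share reads, so the 2 of Mmp19 and the 2 of Timp1 cannot be separated.

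The 14 libraries with a group entered 1 fit with a mean per group in edgeR 4.0.16 (R 4.3.3), with TMM scaling, filterByExpr and the robust quasi-likelihood test. DESeq2 1.42.0 was an alternative. The common biological coefficient of variation was 0.748. No 2 libraries were identical (highest rank correlation 0.956). Where a group had no count, a floor of 3 counts over the group was used, and for a single library 3 counts in it. The scripts were tested on simulated data.

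The 10 members are named in every comparison. Of the wider network, up to 6 genes with the smallest p among those called, whose mean reached 5 CPM in the higher group, are named per comparison (calls of these genes in other comparisons were added after their values were seen), and 2 genes are named for likeness to each member. Members and lists were chosen with earlier results of these data known.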

Additional observations from a re-analysis of the deposited data

Results flagged for a closer look

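LTearly replicate 3 stood apart from the other 3 libraries of its group for Mmp8 (1060 CPM), Adam19 (147 CPM) and Timp1 (1.83 CPM, from 5 counts), its gap to the nearest library being larger than Dixon's 95% critical value allows in a group of 4. Chance flags about 1 in 20 groups. For Timp1 the other 3 libraries are all at 0, so any count in the fourth would give this ratio, and the flag says nothing of its size.

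The M2grLT3 library belongs to no comparison, since its title and its column name disagree, and all 10 genes were higher in it than in every wtGMP library. In the urokinase system it held Plaur at 135 CPM and Plau at 11.0 CPM. Among the matrix metalloproteases it held Mmp8 at 538 CPM, Mmp9 at 133, Mmp19 at 43.9 and Mmp14 at 4.50. Adam8 stood at 120 CPM, Adam9 at 69.5 and Adam19 at 16.8. Timp1 stood at 3.44 CPM, from 26 counts, the highest of any library. Its late neutrophil marker sum was 25600 CPM, also the highest of any library.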

How the results depend on the processing

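No member reversed a called direction under any alternative. Members called in BMTGMP against wtGMP rose from 1 to 3 with DESeq2 and to 2 with a replicate block or with the fit kept to the groups compared. All genes called there went from 954 to 1420, 861 and 1215 in the same order. In LTlate against BMTGMP the members called went from 1 to 3 with DESeq2, 4 with only the groups compared and 0 with the replicate block (6 at an unadjusted p under 0.05; Adam8 at 4.07, adjusted p = 0.0597). All genes called there went from 288 to 574, 454 and 301. In LTearly against BMTGMP the members called fell from 6 to 3 with no low-count filter, while all genes called went from 907 to 931. Without LTearly replicates 3 and 4 together, a choice made after seeing the data, 1 member was called in LTearly against LTlate.

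Over all genes, LTearly against LTlate went from 30 calls to 264 with DESeq2 (69.3% higher, against 56.7%), 141 with no filter (36.2% higher), 52 with a filter of 1 CPM in 3 libraries, 79 with M2grLT3 as LTearly, 0 with it as LTlate (1483 at an unadjusted p under 0.05; no other tool was run on that grouping) and 174 without LTearly replicates 3 and 4. LTearly against BMTGMP went from 907 to 1500 with DESeq2 and 407 with only the groups compared, LTlate against BMTGMP from 288 to 574 (66.4% higher, against 76.7%) and 454, and LTlate against wtGMP from 1567 to 2480 with only the groups compared.

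With each library left out in turn, members called ran from 6 to 8 in LTearly against wtGMP, 3 to 7 in LTlate against wtGMP, 1 to 1 in BMTGMP against wtGMP, 0 to 1 in LTearly against LTlate, 2 to 6 in LTearly against BMTGMP and 0 to 2 in LTlate against BMTGMP. The lowest counts came without LTlate replicate 2 in LTlate against wtGMP and without any 1 of the 3 BMTGMP libraries in LTearly against BMTGMP. All genes called ran, in the same order, from 2337 to 3182, 917 to 1334, 711 to 888, 4 to 198, 581 to 1270 and 154 to 311. Counts moved by over 1.5 times in LTlate against wtGMP without LTlate replicate 2 (917), in LTearly against BMTGMP without BMTGMP replicate 1 (581), in LTlate against BMTGMP without LTlate replicate 2 (154) or BMTGMP replicate 4 (165), and in LTearly against LTlate without LTearly replicate 4 (198) or LTlate replicate 3 (9) or 4 (4).

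Same-numbered libraries of 2 groups had correlations of their deviations from -0.161 to 0.114. In LTlate against wtGMP 6 of 6, but over all pairs of groups 13 of 36, correlated best with their own number. These values do not settle whether replicate numbers pair the libraries or mark a batch.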
